A study of Macaca fascicularis with 48 samples.

Results

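The genes described here are 10 genes of systemic and cellular iron regulation: TMPRSS6, HAMP, TFR2, BMP6 and HFE, which set or sense the hormone that controls iron export, TF and TFRC, which carry and take up iron, SLC40A1, which exports it, and FTH1 and FTL, which store it. They were found by gene name among the 16842 gene names of the deposited count table, and 9 of the 10 were analysed; HFE was not analysed here. TMPRSS6 was selected on a measured value, its lower level in treated than in control liver, and the others by their known part in iron handling. The treated and control livers were therefore already used in choosing the genes, and all liver differences between treated and control animals below are given as values with no test.

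RNA was sequenced from 6 tissues of cynomolgus monkeys (Macaca fascicularis): liver, the cervical, thoracic and lumbar spinal cord, and the cervical and lumbar dorsal root ganglia, which hold the cell bodies of sensory neurons. Treated animals had received GS-8873, a compound made to lower the RNA of hepatitis B virus, by gavage at 6 mg/kg/day for 13 weeks, and control animals had received 0 mg/kg/day over the same time. Every tissue had 4 control and 4 treated libraries, each from a separate animal, with 2 males and 2 females in each group of 4. The animals' age and genotype are not given in the sources used here. The labels name 10 animals: the same 4 controls gave all 6 tissues, the same 4 treated animals gave liver and cord, and the treated ganglia came from 6 treated animals, those 4 and 2 others, each region from 4 of them, although the design text counts 4 treated animals. The comparisons in different tissues thus share control animals, and those of the 3 cord regions share all 8 animals.

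Iron enters most cells when transferrin, the product of TF, binds the transferrin receptor TFRC, and the excess is held inside ferritin, a shell built from the FTH1 and FTL chains. Iron leaves cells through ferroportin, the product of SLC40A1, which hepcidin, a small peptide hormone made by hepatocytes from HAMP, removes from the cell surface. BMP6, TFR2 and HFE act upstream to raise HAMP, and the membrane protease TMPRSS6 lowers it by cutting a BMP co-receptor. In the nervous system oligodendrocytes are known as a source of transferrin and as iron-rich cells.

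Total counts per library ran from 35453786 to 53480762, each mate of a read pair counting as 1 read. The hepatocyte markers ALB, APOA1, APOC3, SERPINA1 and TTR summed to at least 148260 CPM (counts scaled to the same library total) in each liver library and to at most 239 CPM in any nervous library, and the oligodendrocyte, Schwann cell and neuron markers were present in their tissues with the following exceptions. Lumbar cord control replicate 1 and treated replicate 1 had almost no MOG, a myelin gene of oligodendrocytes (0.258 and 0.0870 CPM, against 330 to 657 CPM in the other 6 lumbar cord libraries), and their astrocyte marker sums were 47.9 and 66.8 CPM, so these libraries go against their label. In thoracic cord, control replicate 4 and treated replicates 1 and 4 had mitochondrial shares of 37.3%, 32.2% and 36.4%. Cervical ganglia treated replicate 4 had a mitochondrial share of 23.01% and 9.76% of its counts in nuclear genes shorter than 1000 bases, against 3.20% to 3.71% in the other 7 cervical ganglia libraries. For the fitted iron genes, values of treated against control in single tissues are also given without these libraries, called doubtful below. Control tissue levels, tissue contrasts and sums over cord include them unless stated. Cervical and lumbar cord treated replicate 4 were not counted as doubtful. They had mitochondrial shares of 25.66% and 27.04%, with 5.371% and 6.276% of counts in short nuclear genes, and came from the animal of that cervical ganglia library. Among cervical cord controls the lowest neuron marker sum was 95.1 CPM (median 1481) and the highest Schwann cell marker sum 11008 CPM (median 762). In lumbar cord controls the median Schwann cell marker sum was 7382 CPM. No library was counted as doubtful on these sums. In bulk tissue, fewer cells of a type and less RNA per cell cannot be told apart.

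Which tissues express each iron gene was read from the 24 control libraries, fitted together with animal as a block. Levels compared between genes are CPM per kilobase of exon, and differences between tissues are log2 values ± SE. TMPRSS6 and HAMP entered this fit through the tissues where they were high and had to differ, so their differences are given with no test. Of the other 7 genes, 5 passed between liver and the mean of the 5 nervous tissues (edgeR quasi-likelihood, Benjamini-Hochberg adjusted p under 0.05 over all genes), 4 higher in liver and 1 lower, where 76.5% of all 15008 genes tested passed, 34.3% higher and 42.2% lower.

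**Figure D1:**
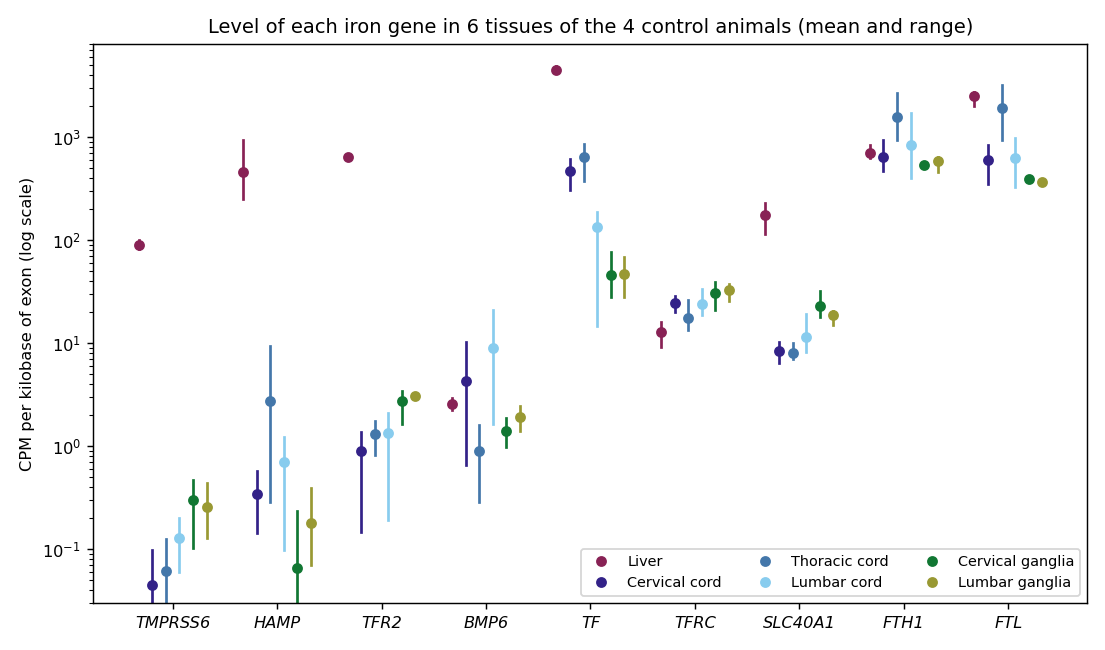
Level of the 9 iron genes in CPM per kilobase of exon on a log axis, in the 6 tissues of the 4 control animals; points are means and lines run from the lowest to the highest animal, cut off below at the bottom of the axis. TMPRSS6, HAMP and TFR2 have liver means of 90.2, 453 and 643 and nervous tissue means of at most 0.299, 2.73 and 3.06, while TFRC is lowest in liver and the ferritin genes FTH1 and FTL are abundant in every tissue.

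TMPRSS6, HAMP and TFR2 had far higher levels in liver than in the nervous tissues. TMPRSS6 (chromosome 10, 14168695 to 14208191, plus strand, of the Macaca_fascicularis_5.0 build) had 90.2 ± 7.26 CPM per kilobase (SD, n = 4) in control liver. Its means in the nervous tissues lay between 0.0450 in cervical cord and 0.299 in cervical ganglia, and neighbouring tissues in that order overlapped. The liver difference of TMPRSS6 was 9.58 ± 0.34.

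HAMP (chromosome 19, 35737792 to 35740566, plus strand) had 453 ± 321 CPM per kilobase in control liver, with the 4 animals spread from 249 to 927. Its nervous tissue means ran from 0.0657 in cervical ganglia to 2.73 ± 4.39 in thoracic cord, where 1 animal at 9.31, the control whose library had the mitochondrial share of 37.3%, made most of the mean. The liver difference was 10.43 ± 0.53. TFR2 (chromosome 3, 44890148 to 44911483, minus strand), the second transferrin receptor and a sensor of transferrin-bound iron, had 643 ± 39.9 in liver and 0.901 to 3.06 as nervous tissue means, a difference of 8.66 ± 0.35 (adjusted p = 2.01e-13). Per kilobase, TFR2 was thus the more abundant transferrin receptor gene in liver, and TFRC the more abundant in all 5 nervous tissues: the ratio of TFR2 to TFRC was 37.7 to 73.5 in control livers and at most 0.127 in control nervous libraries.

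BMP6 (chromosome 4, 163066339 to 163223998, minus strand), the growth factor ligand that liver endothelium is known to supply, was low throughout, with 2.56 ± 0.293 CPM per kilobase in liver and nervous tissue means from 0.889 in thoracic cord to 8.99 ± 9.18 in lumbar cord. All 6 tissues overlapped in a chain from lowest to highest. The liver difference of 0.14 ± 0.53 did not pass (adjusted p = 0.817), and with scaling by total counts it turned to -0.97 ± 0.57 (adjusted p = 0.121). The 21.1 that heads the lumbar cord range belongs to control replicate 1, the library with almost no MOG.

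Of the genes of transport, TF (chromosome 2, 35924753 to 35961248, plus strand) was the most abundant of the 9 in liver, at 4427 ± 288 CPM per kilobase. In the nervous system it had 636 ± 199 in thoracic cord, 469 ± 125 in cervical cord and 133 ± 79.8 in lumbar cord, against 46.03 ± 21.5 and 46.6 ± 16.9 in cervical and lumbar ganglia. The lowest lumbar cord control, at 14.5, was replicate 1, the library with almost no MOG. The cord means of thoracic and cervical regions differed by less than their spread, as did those of both ganglia. TFRC (chromosome 2, 281014 to 314314, minus strand) was highest in ganglia and lowest in liver: 32.4 ± 5.67 in lumbar ganglia, 30.5 ± 7.87 in cervical ganglia, 24.3 ± 4.50 in cervical cord, 23.8 ± 6.39 in lumbar cord, 17.5 ± 5.88 in thoracic cord and 12.7 ± 3.05 in liver. Each tissue in that order overlapped with the next. TFRC was lower in liver by -0.97 ± 0.21 (adjusted p = 0.000423), and SLC40A1 (chromosome 12, 78727371 to 78747161, minus strand), at 176 ± 50.9 in liver and 8.05 to 22.7 as nervous tissue means, was higher there by 3.81 ± 0.15 (adjusted p = 1.71e-13).

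The ferritin genes were abundant in all tissues. FTL (chromosome 19, 49789444 to 49791326, plus strand) had 2517 ± 360 CPM per kilobase in liver, 1913 ± 1042 in thoracic cord, 620 ± 331 in lumbar cord, 598 ± 200 in cervical cord, 394 ± 14.6 in cervical ganglia and 367 ± 24.3 in lumbar ganglia. FTL was higher in liver by 2.01 ± 0.25 (adjusted p = 8.51e-07). FTH1 (chromosome 14, 12247386 to 12255854, plus strand) had 1570 ± 807 in thoracic cord and 539 to 840 as means elsewhere, liver included at 701 ± 97.2, and its liver difference of -0.09 ± 0.30 did not pass (adjusted p = 0.786). With scaling by total counts the median of all genes moved from -0.18 to -1.30, FTH1 passed as lower in liver at -1.20 ± 0.31 (adjusted p = 0.00140), and the 5 genes that had passed kept their direction. FTL thus exceeded FTH1 per kilobase in liver, with a ratio of 3.05 to 4.29 in the 4 control livers, and in ganglia the order was the other way, with 0.682 to 0.780 in cervical and 0.539 to 0.826 in lumbar ganglia. Primate genomes carry near-identical copies of ferritin genes, and FTH1 overlaps BEST1 and an Rfam entry in the annotation while reads were counted without regard to strand, so counts of FTH1 and FTL are less certain than those of the other genes.

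Between ganglia and cord of the control animals, 6 of the same 7 genes passed, 3 higher in ganglia and 3 lower, where 61.9% of all genes passed, 29.5% higher and 32.4% lower. The regulator TFR2 (1.45 ± 0.35, adjusted p = 0.00156), the exporter SLC40A1 (1.18 ± 0.15, adjusted p = 3.78e-06) and the receptor TFRC (0.55 ± 0.16, adjusted p = 0.00715) were higher in ganglia. TF (-2.90 ± 0.40, adjusted p = 7.33e-06), FTL (-1.19 ± 0.24, adjusted p = 0.000456) and FTH1 (-0.71 ± 0.25, adjusted p = 0.0207) were lower there, and BMP6 (-0.72 ± 0.47, adjusted p = 0.193) did not pass. TMPRSS6, with 1 to 37 counts in control cord and 21 to 99 in control ganglia, and HAMP, with 3 to 164 and 0 to 12 counts, are given there with no test. The calls on TFRC and FTH1 were lost without control animal 1 (0.41 and -0.54) and without control animal 2 (0.36 and -0.68). Oligodendrocyte marker sums were 15688 to 101380 CPM in control cord and 2351 to 4217 CPM in control ganglia, and their part in the lower TF and ferritin levels of ganglia was not tested.

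In liver, the comparison asks whether iron genes differed between animals given GS-8873 and controls. Levels from here on are TMM-scaled CPM of each tissue's own fit. Of the 9 genes, 3 had every treated animal below every control (TMPRSS6, TFR2 and FTL) and 6 overlapped; over all 12609 genes of that fit, 3.09% had every treated animal below every control and 2.05% every treated animal above. Since this contrast chose the genes, nothing is read from that count. In CPM of total counts, only TMPRSS6 of the 9 had groups that did not overlap in liver.

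TMPRSS6 had 196, 160, 178 and 178 CPM in control replicates 1 to 4 and 105, 113, 98.8 and 116 CPM in treated replicates 1 to 4. The lowest control lay well above the highest treated animal. The log2 fold change was -0.72 ± 0.10 (SE), and leaving out each animal in turn gave -0.78 to -0.66. TFR2 had 1201, 1049, 1179 and 1100 CPM in controls and 893, 717, 914 and 820 CPM in treated animals, again with no overlap, a log2 fold change of -0.44 ± 0.12.

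HAMP, the hormone gene that TMPRSS6 holds down and that TFR2 raises, did not separate the groups. Its 4 controls had 81.9, 304, 87.9 and 122 CPM and its 4 treated animals 106, 284, 98.8 and 94.9 CPM. Replicate 2 of each group, a male in both, stood far above the other 3, which lay close together in either group. The log2 fold change was -0.05 ± 0.43, with an error wider than that of any other of the 9 genes, and it ran from -0.41 to 0.40 with 1 animal left out. BMP6, at 0.808 to 2.73 CPM over the 8 livers, gave -0.15 ± 0.34, and -0.40 to 0.14 with 1 animal left out.

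TF, the most abundant, had 15391 to 17650 CPM in controls and 14163 to 16962 CPM in treated animals, with a log2 fold change of -0.09 ± 0.12. TFRC, at 25.8 to 44.8 CPM in controls and 24.6 to 34.7 CPM in treated animals, gave -0.26 ± 0.17. SLC40A1 was the only one of the 9 with a positive value, 0.18 ± 0.22, from 218 to 437 CPM in controls and 305 to 429 CPM in treated animals. All 3 transport genes overlapped between groups.

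FTL had 1310, 1280, 1286 and 957 CPM in controls and 782, 903.5, 895 and 847 CPM in treated animals. Control replicate 4 lay near the treated group, the other 3 controls far above it, and no treated animal reached a control. On the log2 scale FTL differed by -0.49 ± 0.13. FTH1 had 453, 411, 556 and 432 CPM in controls and 268, 349, 427 and 336 CPM in treated animals; the log2 fold change was -0.43 ± 0.14, with treated replicate 3 above the lowest control. The ratio of FTL to FTH1 per kilobase was 3.62 ± 0.603 (SD, n = 4) in controls and 3.48 ± 0.470 in treated animals.

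**Figure D2:**
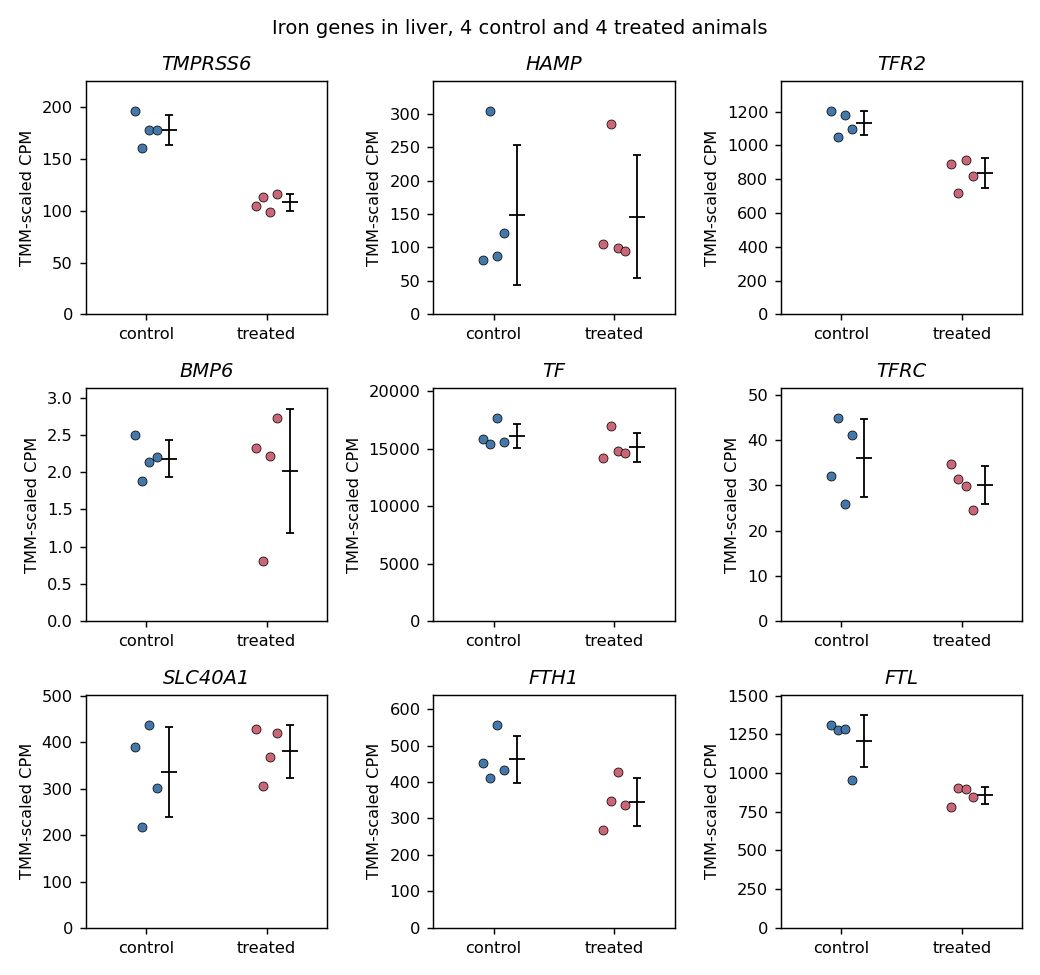
TMM-scaled CPM of each of the 9 iron genes in liver (vertical axes, from 0), 1 point per animal, control in blue and treated in red, with mean ± SD (n = 4) beside the points. The groups are apart for TMPRSS6, TFR2 and FTL, and in HAMP 1 control at 304 and 1 treated animal at 284 stand above the rest.

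Over the 9 genes the median log2 fold change in liver was -0.26, with 8 of 9 negative, and over all genes tested it was 0.01, with 48.1% negative. TMPRSS6, chosen on this contrast, is among the 8, so nothing is read from these values as a set. With scaling by total counts the median of all genes moved to 0.18, TMPRSS6 to -0.55, FTL to -0.32, TFR2 and FTH1 to -0.26 and TFRC to -0.08, while TF (0.08), HAMP (0.13) and BMP6 (0.03) turned positive. No gene of the 12609 passed in liver by edgeR (0%), 1049 had an unadjusted p under 0.05, and DESeq2 called 190. The hepatocyte markers summed to 173940 to 194350 CPM in controls and to 148260 to 158180 CPM in treated livers, without overlap. All 6 macrophage markers were lower (median -0.34), with sums of 164 to 994 and 348 to 707 CPM, and the erythroid sums were 49.4 to 132 and 32.4 to 202 CPM. Mitochondrial shares were 7.90% to 11.8% in control and 6.86% to 7.85% in treated livers, and the share of counts in nuclear genes under 1000 bases, FTL among them, was 3.49% to 3.55% and 3.67% to 3.80%, both without overlap. The part of these in the values above was not tested.

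The stated reason for choosing the genes was the liver value of TMPRSS6, not a nervous tissue value. The genes were still chosen with earlier results of these data known, and the animals that gave the livers also gave the cord. The nervous tissue tests are therefore not free of that choice. In the 5 nervous tissues 41 of the 45 pairs of gene and tissue were fitted. TMPRSS6 in cervical and thoracic cord and HAMP in both ganglia were below the count filter. TMPRSS6 in lumbar cord and HAMP in cervical cord met it mainly through the group where they were higher. Their values there are given with no test. Of the 41 fitted pairs, a number that still includes those given with no test, 1 passed: FTH1, which fell in lumbar ganglia. In cervical, thoracic and lumbar cord and in cervical ganglia no gene of the genome passed in edgeR (0% in each; 1356, 327, 250 and 1042 genes with an unadjusted p under 0.05, and 108, 28, 6 and 225 calls by DESeq2). In lumbar ganglia 612 of 14267 genes passed, 4.29%, of which 91 rose and 521 fell (3.65%); scaling by total counts gave 1475 and 368. For TFRC every treated animal was below every control in each of these tissues with TMM scaling, but in CPM of total counts only in lumbar cord; the tissues share control animals, so these are not independent.

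**Figure D3:**
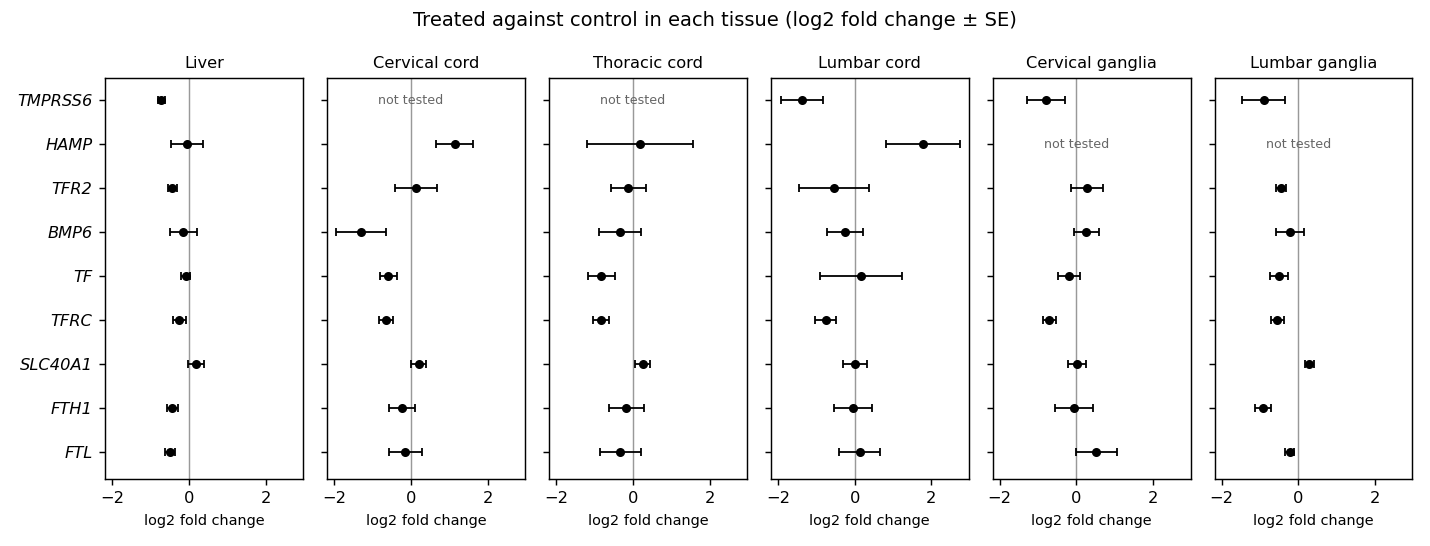
Log2 fold change of treated against control (horizontal axis; point) with its SE (line) for the 9 iron genes in each of the 6 tissues, from a separate edgeR fit per tissue. TFRC lies left of 0 in every panel, at -0.26 in liver and -0.83 to -0.55 in the nervous tissues, and FTH1 in lumbar ganglia at -0.92 is the only value of the 5 nervous panels that passed.

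Among the regulators, TMPRSS6 was at the edge of detection in the nervous system, with 0 to 37 counts in cord libraries and 8 to 99 in ganglia. In thoracic cord treated replicate 4 it had 0 counts, which allows up to 0.0883 CPM, the level of 3 counts. In lumbar cord it had 0.259, 0.534, 0.882 and 0.607 CPM in controls and 0.300, 0.107, 0.155 and 0.275 CPM in treated animals. The groups overlapped through control replicate 1, which has almost no MOG. The log2 fold change was -1.37 ± 0.55, and -1.91 ± 0.51 without the 2 such libraries. Both are given with no test, since TMPRSS6 met the count filter there mainly through controls. In cervical ganglia it gave -0.80 ± 0.50 (edgeR adjusted p = 0.737), and -0.67 without treated replicate 4. The value in lumbar ganglia was -0.90 ± 0.56 (adjusted p = 0.378). Summed over the 3 cord regions of each animal, TMPRSS6 had 0.326 ± 0.0390 CPM in controls and 0.161 ± 0.0801 CPM in treated animals, with every treated animal below every control (1.43% of 15002 genes had that), and the log2 fold change of -1.03 ± 0.43 did not pass (adjusted p = 0.858). In the 16 ganglia libraries fitted together with animal as a random block it was -1.08 ± 0.45 (limma adjusted p = 0.352).

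HAMP in cord was likewise low, with 3 to 164 counts a library. In cervical cord its controls had 0.223, 0.0995, 0.407 and 0.238 CPM and its treated animals 0.625, 0.345, 0.424 and 0.670 CPM. Treated replicate 2 lay below the highest control. The log2 fold change of 1.14 ± 0.49 there is given with no test, since HAMP met the count filter mainly through treated libraries. In thoracic cord it gave 0.19 ± 1.37 (edgeR adjusted p = 0.987), and 1.24 ± 0.75 without the 3 libraries of high mitochondrial share. In lumbar cord it gave 1.78 ± 0.96 (adjusted p = 0.99991), 2.30 ± 1.12 without the 2 low in MOG and 0.84 without treated replicate 4. In cervical ganglia, control replicates 1 and 2 had 0 counts, which allow up to 0.0656 and 0.0602 CPM, control replicates 3 and 4 had 1 and 8 counts, and the treated replicates had 4, 13, 6 and 46 counts. The highest of these, treated replicate 4, is the library rich in short genes, and HAMP at 591 bases of exon is such a gene. TFR2 and FTH1, at 3159 and 1186 bases, were also highest of their group in that library. The part of gene length in the HAMP counts was not tested. The ganglia fitted together gave 1.57 ± 1.08. HAMP met the count filter of that fit mainly through treated libraries, so this value is given with no test.

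TFR2 in lumbar ganglia had 11.6, 11.8, 13.0 and 11.8 CPM in controls and 7.89, 8.58, 10.3 and 8.63 CPM in treated animals. The controls lay close together and every treated animal was lower; 9.35% of all genes had that in lumbar ganglia. In CPM of total counts the groups, at 10.5 to 12.2 and 8.46 to 11.4, overlapped. Its log2 fold change was -0.45 ± 0.13, and it did not pass in edgeR (adjusted p = 0.0944), although it did in DESeq2 (adjusted p = 0.00731). In cervical ganglia the value was 0.27 ± 0.41 (adjusted p = 0.884) with all 8 libraries and -0.22 without treated replicate 4, which had 23.9 CPM against 8.60 to 10.3 CPM in the other 3. In cord TFR2 gave 0.13 ± 0.55, -0.11 ± 0.45 and -0.53 ± 0.92 in the cervical, thoracic and lumbar regions (adjusted p of 0.931 or more), with -0.19 ± 0.42 and -0.34 ± 0.39 in the latter regions without their doubtful libraries. Cervical cord control replicate 1 had 0.535 CPM of TFR2 against 3.83 to 5.06 CPM in the other controls, and without it the cervical value was -0.27. BMP6 gave -1.30 ± 0.65 in cervical cord (adjusted p = 0.507) and -0.33 ± 0.54, -0.25 ± 0.47, 0.26 ± 0.33 and -0.22 ± 0.36 in the thoracic and lumbar cord and the cervical and lumbar ganglia (adjusted p of 0.768 or more). Without the doubtful libraries BMP6 was at 0.57 ± 0.59 in thoracic cord, -0.52 ± 0.38 in lumbar cord and 0.27 ± 0.35 in cervical ganglia. Cervical cord control replicate 1 had 18.3 CPM of BMP6 against 1.16 to 5.87 CPM in the other controls. Leaving out each animal in turn gave -1.71 to -0.79 in cervical cord. In lumbar cord the highest BMP6 libraries of each group, at 39.2 and 39.7 CPM, were the 2 with almost no MOG, in which Schwann cell markers summed to 36111 and 26346 CPM.

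TFRC, the receptor for transferrin uptake, was lower in treated animals in each nervous tissue without passing the test in any. In cervical cord the controls had 123, 122, 169 and 172 CPM and the treated animals 91.3, 112, 94.8 and 73.4 CPM, and in thoracic cord 76.7, 67.2, 132 and 75.2 against 42.2, 50.95, 53.7 and 47.995 CPM. In lumbar cord the controls had 116, 135, 208 and 144 CPM and the treated animals 102, 99.8, 97.3 and 57.6 CPM. No treated animal reached a control in any region, and the lowest treated library in cervical and lumbar cord was replicate 4. Without that replicate the TFRC log2 fold change was -0.49 in cervical and -0.53 in lumbar cord.

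The cord log2 fold changes were -0.64 ± 0.19 (cervical; edgeR adjusted p = 0.504), -0.83 ± 0.21 (thoracic; adjusted p = 0.981) and -0.75 ± 0.28 (lumbar; adjusted p = 0.99991). Groups apart with treated animals lower were found for 2.91%, 1.17% and 0.884% of all genes in those regions. Summed per animal, TFRC had 128 ± 29.3 CPM in controls and 77.1 ± 11.1 CPM in treated animals (SD, n = 4). This difference, -0.71 ± 0.19 on the log2 scale, did not pass (adjusted p = 0.858), with 1.43% of genes apart in that direction. Without the 3 thoracic libraries of high mitochondrial share the value there was -0.80 ± 0.25, and in lumbar cord it was -0.91 ± 0.30 once the 2 libraries lacking MOG were left out.

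In cervical ganglia the TFRC controls had 204, 241, 174 and 136 CPM and the treated animals 128, 114, 118 and 96.1 CPM. In lumbar ganglia they had 231, 234, 192 and 165 CPM against 113, 126, 163 and 161 CPM. The groups did not overlap in either region, although in lumbar ganglia control replicate 4 at 165 CPM lay next to treated replicate 3 at 163 CPM. The log2 fold changes were -0.70 ± 0.17 (edgeR adjusted p = 0.359; 3.28% of genes apart in that direction) and -0.55 ± 0.17 (adjusted p = 0.109; 9.35%).

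Without treated replicate 4 the cervical value was -0.69 ± 0.17 (adjusted p = 0.139). With the 16 ganglia libraries fitted together, TFRC gave -0.63 ± 0.15 and just missed the threshold (limma adjusted p = 0.0684; 0.943% of 14535 genes passed). Leaving out each of the 10 animals gave -0.76 to -0.55 with adjusted p from 0.0211 to 0.431, and 3 of these fits, each without a treated animal, passed. DESeq2 called TFRC in cervical ganglia (adjusted p = 0.0236), lumbar ganglia (adjusted p = 0.0291) and both together, with libraries of an animal taken as independent (adjusted p = 0.000138). With total counts the value in lumbar ganglia was -0.36 ± 0.16 (adjusted p = 0.157). Whether the TFRC difference varied between tissues was not tested.

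**Figure D4:**
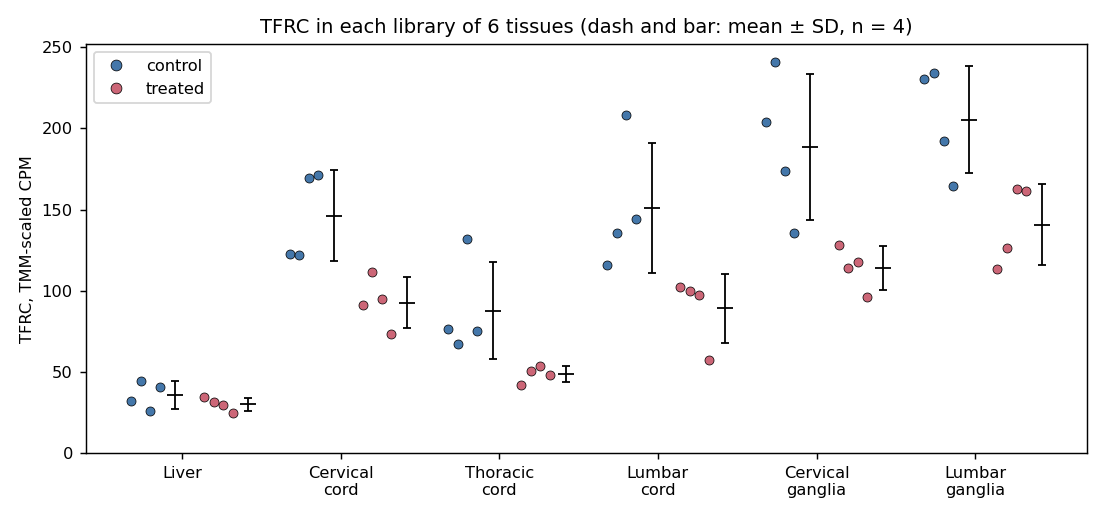
TFRC in TMM-scaled CPM (vertical axis, from 0) in each library of the 6 tissues, control in blue and treated in red, with mean ± SD (n = 4) beside the points; each tissue is scaled by its own fit. In the 5 nervous tissues all 4 treated points lie below all 4 control points, and in liver the groups overlap.

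Cell type markers were read beside TFRC. In ganglia all 4 neuron markers were lower (median log2 fold change -0.54 in cervical and -0.59 in lumbar ganglia), with sums of 2144 to 3918 CPM in control and 1673 to 2600 CPM in treated cervical ganglia, and 3356 to 4051 against 2036 to 2740 CPM in lumbar ganglia. Of the 5 sensory neuron markers 2 were higher and 3 lower in each (median -0.21), with sums of 739 to 1426 and 663 to 1441 CPM in cervical ganglia and of 1080 to 1417 and 754 to 2038 CPM in lumbar ganglia, which overlapped. The 4 endothelial markers summed to 77.5 to 467 and 41.3 to 322 CPM in cervical ganglia and to 86.1 to 203 and 87.4 to 251 CPM in lumbar ganglia. Erythroid marker sums were 20.1 to 695 and 157 to 315 CPM, and 45.9 to 1459 and 17.9 to 599 CPM. In cord, neuron marker sums were 95.1 to 2586 and 949 to 1734 CPM (cervical), 226 to 978 and 318 to 1213 CPM (thoracic) and 199 to 3126 and 274 to 1499 CPM (lumbar), and endothelial markers were lower in 3, 4 and 4 of 4. The part of any of these cells in the TFRC values was not tested.

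TF, the ligand of that receptor, had 3727, 4746, 3620 and 2366 CPM in cervical cord controls and 2601, 2279, 2668 and 1947 CPM in treated animals. Control replicate 4 lay inside the treated range and the other 3 controls above it. On the log2 scale the difference was -0.59 ± 0.22 (adjusted p = 0.504), and in thoracic cord it was -0.82 ± 0.36 (adjusted p = 0.981; -0.92 ± 0.26 without the 3 libraries). In lumbar cord TF gave 0.17 ± 1.06 (adjusted p = 0.99991), and 0.11 ± 0.27 without the 2 libraries with almost no MOG, which had 115 and 46.1 CPM against 1053 to 1993 CPM in the other 6. The value was -0.19 ± 0.28 in cervical ganglia (adjusted p = 0.881; -0.42 ± 0.24 without treated replicate 4) and -0.51 ± 0.23 in lumbar ganglia (adjusted p = 0.244). Oligodendrocyte marker sums were 44687 to 73738 CPM in control and 42413 to 58724 CPM in treated cervical cord, and 38619 to 101380 against 30780 to 80830 CPM in thoracic cord; their part in the TF values was not tested.

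SLC40A1, the exporter, had 82.4, 85.8, 65.6 and 84.3 CPM in lumbar ganglia controls and 87.8, 97.5, 93.1 and 110 CPM in treated animals. Every treated animal was above every control, as for 7.38% of all genes there. The log2 fold change of 0.29 ± 0.12 did not pass (adjusted p = 0.198), and with scaling by total counts, which moved the median of all genes from 0.05 to 0.24, it was 0.48 ± 0.12 and passed (adjusted p = 0.0387). In the other nervous tissues SLC40A1 gave 0.20 ± 0.20, 0.26 ± 0.19 and 0.02 ± 0.31 in the cord regions from cervical to lumbar and 0.01 ± 0.23 in cervical ganglia (adjusted p of 0.672 or more). Without the doubtful libraries it gave 0.21 ± 0.21 in thoracic cord, 0.048 ± 0.20 in lumbar cord and 0.12 ± 0.21 in cervical ganglia.

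FTH1, the heavy chain of ferritin, fell in lumbar ganglia. Controls had 943, 671, 912 and 948 CPM and treated animals 598, 326, 434 and 479 CPM, with no overlap, although control replicate 2 lay nearer the treated group than the other 3 controls. In CPM of total counts that control, at 616, lay within the treated range of 342 to 641. The log2 fold change was -0.92 ± 0.20 (edgeR adjusted p = 0.0481), just under the threshold. The call was lost on leaving out any 1 animal except treated replicate 1 (range -1.14 to -0.78, adjusted p from 0.00993 to 0.174), and with scaling by total counts (-0.72 ± 0.21, adjusted p = 0.0545). It was 1 call among the 8 genes tested there, against 4.29% of all genes.

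FTL, the light chain, had 375, 402.9, 429 and 372 CPM in lumbar ganglia controls and 341, 401, 300 and 314 CPM in treated animals, with a log2 fold change of -0.23 ± 0.11 (adjusted p = 0.276). Treated replicate 2 lay among the controls and the other 3 below them. The ratio of FTL to FTH1 per kilobase was 0.539 to 0.826 in control and 0.784 to 1.70 in treated lumbar ganglia, which overlapped, and 0.682 to 0.780 against 0.837 to 1.36 in cervical ganglia, which did not. The ratios are given as a description.

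In cervical ganglia FTH1 had 781, 822, 726 and 789 CPM in controls and 552, 332, 500 and 2003 CPM in treated animals. Treated replicates 1 to 3 lay below all controls and replicate 4 far above all of them. The same library had 1814 CPM of FTL against 313 to 336 CPM in the other treated animals and 387 to 447 CPM in controls. With all 8 libraries FTH1 gave -0.07 ± 0.49 (adjusted p = 0.985) and FTL 0.52 ± 0.54 (adjusted p = 0.831), and without treated replicate 4 they gave -0.76 and -0.35, both short of the threshold. In the ganglia fitted together FTH1 was -0.47 ± 0.34 (limma adjusted p = 0.648), and without the animal that gave this library it was -0.83 ± 0.17 and passed (adjusted p = 0.00950). In cord the ferritin genes gave -0.32 to 0.13 with SE of 0.33 to 0.53 (adjusted p of 0.785 or more). Without the doubtful libraries FTH1 was at -0.46 ± 0.35 in thoracic and 0.071 ± 0.45 in lumbar cord, and FTL at -0.71 ± 0.37 and 0.41 ± 0.63.

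**Figure D5:**
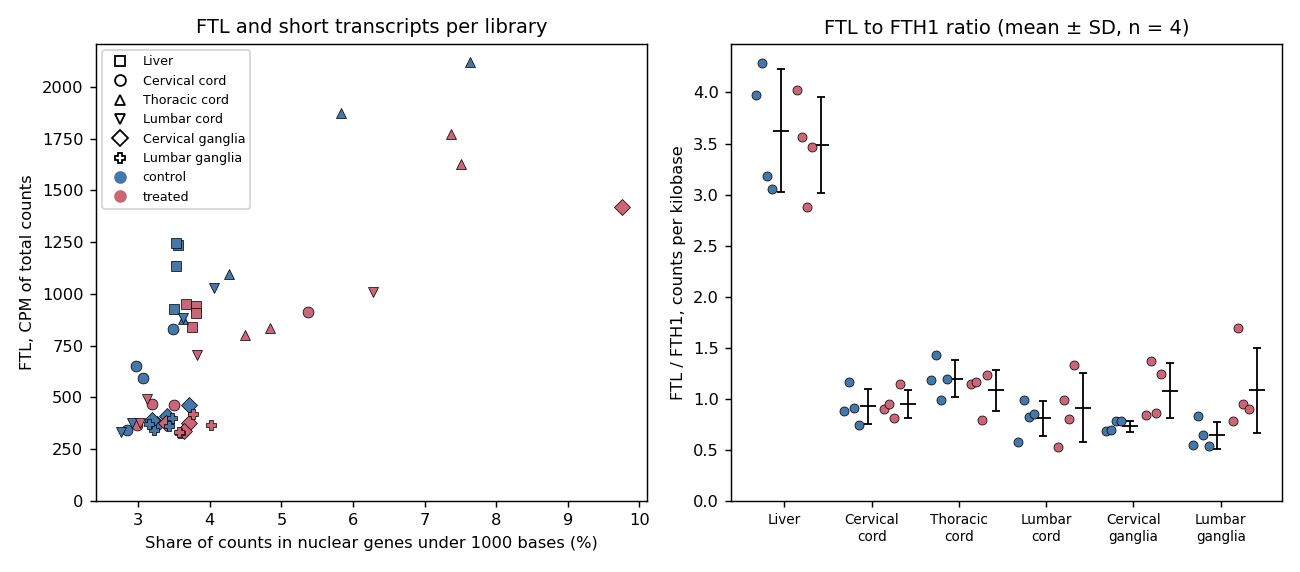
Left, FTL in CPM of total counts (vertical axis) against the percent of counts in nuclear genes shorter than 1000 bases (horizontal axis) in all 48 libraries, by tissue (marker shape) and group (colour); right, the ratio of FTL to FTH1 per kilobase in each library with mean ± SD (n = 4). The cervical ganglia library at 9.76% on the left has the highest FTL of the ganglia, and on the right liver ratios lie at 2.88 or above while all nervous tissue ratios are at 1.70 or below.

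In lumbar ganglia, macrophage markers summed to 80.7 to 170 CPM in controls and 96.5 to 301 CPM in treated animals, Schwann cell markers to 2220 to 5773 and 2887 to 5555 CPM, and the 4 erythroid markers tested were all lower (median -1.47). The neuron marker sums there, given with TFRC above, did not overlap between groups, and the sensory neuron sums did. The share of short nuclear genes was 3.16% to 3.47% in controls and 3.57% to 4.02% in treated lumbar ganglia (FTH1 itself is longer). The part of these in the FTH1 call was not tested.

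Other genes of iron handling came from 4 lists with 61 genes in the table. In liver, where no test is given, 36 of 60 were positive (median 0.04) and the hepcidin pathway list had 15 of 20 positive (median 0.07). SMAD6, an inhibitor of BMP signalling and a known target of it, led that list at 0.50 ± 0.17, followed by ID3 at 0.22 ± 0.11. In the other lists the leading genes of liver were ACO1, the cytosolic aconitase that doubles as an iron regulatory protein (-0.30 ± 0.09), PCBP2, an iron chaperone (-0.25 ± 0.11), CPOX (0.32 ± 0.08) and FECH (-0.26 ± 0.09) of heme synthesis, SLC11A2, an importer of ferrous iron (0.23 ± 0.12), and LTF, lactoferrin (1.70 ± 0.92).

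In lumbar ganglia 2 of the 61 passed, 0 higher and 2 lower, a share no larger than the 4.29% of all genes that passed there. ISCU, the scaffold for iron-sulfur clusters, fell by 0.57 on the log2 scale (SE 0.11, adjusted p = 0.0352), and HMOX2, the constitutive heme oxygenase, fell by 0.42 (SE 0.09, adjusted p = 0.0383). The ISCU call was lost without 6 of the 8 animals and the HMOX2 call without 7 of the 8, and both were lost with scaling by total counts (-0.38 and -0.23, adjusted p = 0.0531 and 0.105). Of the hepcidin pathway list, 16 of 20 were positive there (median 0.25) and none passed, led by the receptor ACVR2A at 0.34 ± 0.08 (adjusted p = 0.0615) and the signal transducer SMAD5 at 0.35 ± 0.10 (adjusted p = 0.102), which both passed in DESeq2 (adjusted p = 0.00957 and 0.0496) and with total counts (0.53 and 0.54, adjusted p = 0.0220 and 0.0269). Of the transport list, STEAP3, the ferrireductase of endosomes that hold the transferrin receptor, gave -0.66 ± 0.20 (adjusted p = 0.103) and MELTF -0.73 ± 0.32 (adjusted p = 0.228), and of the storage list PCBP1 gave -0.37 ± 0.10 (adjusted p = 0.0791) and HERC2 -0.31 ± 0.10 (adjusted p = 0.126).

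In cervical ganglia none of the 61 passed in edgeR, 5 had an unadjusted p under 0.05, and DESeq2 called STAT3, the mediator of inflammatory HAMP induction, at -0.56 (adjusted p = 0.0265). STEAP3 was at -0.69 ± 0.22 (adjusted p = 0.514), HERC2 at -0.52 ± 0.21 (adjusted p = 0.631) and SMAD9 at -0.61 ± 0.19 (adjusted p = 0.494). SLC25A37 of the mitochondrial list was at 0.39 ± 0.22 and HEPH at -0.41 ± 0.20 (adjusted p = 0.729 for both), and ACO1 at -0.14 ± 0.17 (adjusted p = 0.857). With the ganglia fitted together none passed either, 5 had an unadjusted p under 0.05, and SMAD9 (-0.69 ± 0.19, limma adjusted p = 0.104) and STAT3 (-0.46 ± 0.13, adjusted p = 0.116) came nearest.

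In the cord regions none passed, with 8, 1 and 2 of the genes at an unadjusted p under 0.05. ID2, a target of BMP signalling, led the hepcidin list in cervical (0.72 ± 0.24, adjusted p = 0.504) and thoracic cord (0.76 ± 0.31, adjusted p = 0.981), and in lumbar cord SERPINA1 (0.88 ± 0.35) and ID2 (1.095 ± 0.45) had adjusted p = 0.99991. The ferroxidase HEPH led the transport list in thoracic cord (-0.38 ± 0.17, adjusted p = 0.981) and MELTF in cervical cord (1.33 ± 0.45, adjusted p = 0.504). ALAS1, the first enzyme of heme synthesis, was at 0.33 ± 0.17 in thoracic cord (adjusted p = 0.981). Other leading genes of cervical cord were NEO1 (-0.44 ± 0.16), STEAP4 (-2.36 ± 0.95), POLD2 (0.26 ± 0.17) and HERC2 (-0.32 ± 0.24), with adjusted p from 0.504 to 0.585. Those of thoracic cord were NEO1 (-0.60 ± 0.35), CYBRD1 (-0.32 ± 0.18), HMOX2 (0.29 ± 0.24), ACO1 (-0.17 ± 0.16) and HERC2 (-0.50 ± 0.47), at 0.981. In lumbar cord CP (0.75 ± 0.42), CD163 (-0.82 ± 0.46), ACO1 (-0.31 ± 0.17), HERC2 (-0.25 ± 0.30) and BLVRB (0.44 ± 0.37) all had an adjusted p = 0.99991.

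Between liver and nervous tissue of the controls, 44 of the 61 genes passed, 32 higher in liver and 12 lower, where 76.5% of all genes passed, 34.3% higher and 42.2% lower. As with TMPRSS6 and HAMP, a gene that entered this fit only through liver had to differ, so nothing is read from that count. The leading genes were SERPINA1 (10.26 ± 0.17) and HJV, the co-receptor that TMPRSS6 cuts (10.10 ± 0.42), in the hepcidin list, HPX, which binds free heme (13.84 ± 0.44), and the ferroxidase CP (8.71 ± 0.19) in the transport list, ACO1 (4.17 ± 0.08) in the storage list and the inducible heme oxygenase HMOX1 (4.30 ± 0.15) in the heme list. Between ganglia and cord 39 passed, 22 higher in ganglia and 17 lower, near the 61.9% of all genes, with STEAP3 (4.56 ± 0.27) and the metal importer SLC39A14 (0.93 ± 0.12) higher, and SMAD7 (-1.41 ± 0.13) and CPOX (-0.87 ± 0.10) lower.

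Over all 48 libraries, the genes with the pattern most like TMPRSS6, by root mean square difference of centred log2 CPM, were CYP3A5 (0.94), BAAT (0.99), CYP4F2 (1.00), SDC1 (1.13) and RBP5 (1.14). Those most like HAMP were SERPINA1 (1.13), SLC27A5 (1.21), DIO1 (1.22), SMLR1 (1.31) and IGFALS (1.32). No other of the 9 genes was among them, and the 48 libraries share 10 animals and 6 tissues.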

How the data were processed

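RNA of 48 libraries (6 tissues, 4 control and 4 treated animals in each) was sequenced, per the labels' protocols, as 50-base pairs from stranded libraries of polyadenylated RNA. The submitters' processing notes name STAR 2.5.3a and featureCounts 1.4.6-p1, and per the file headers the authors counted reads over the exons of Ensembl release 94 (Macaca_fascicularis_5.0) without pairing mates and without regard to strand. The deposited table holds these raw counts, with 0 value columns of no sample and 0 rows that name no gene; the other deposited columns, exon length and position, are the authors' annotation.

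The counts were fitted per tissue with edgeR 4.0.16 (R 4.3.3; TMM scaling, filterByExpr with a minimum count of 10, robust quasi-likelihood, sex as covariate). The 3 cord regions of an animal were also added up, and the 16 ganglia libraries were fitted together with limma 3.58.1 (voom, animal as random block through statmod 1.5.0, consensus correlation 0.718, sex and region as covariates). Tissues were compared in the 24 control libraries with animal as a block. SE of an edgeR value is its absolute log2 difference divided by the square root of F. P-values were Benjamini-Hochberg adjusted over all genes, with a threshold of 0.05. Marker sums and total-count CPM were not TMM-scaled.

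Replicates are separate animals. The 10 genes and the lists of other iron genes were chosen with earlier results of these data known. Named from each list were the 2 genes with the smallest p and those that passed; in tissue contrasts, where over 10 passed, values are given for at most 2 of a list. Some genes that this rule names are not reported here. DESeq2 1.42.0, limma voom, median-ratio size factors, no filter, no sex term, a replicate block and leaving out each animal or doubtful libraries were alternatives, and scaling by total counts and leaving out 3 thoracic libraries were added after seeing the data. On simulated data, the share of 100 genes changed 2-fold that was recovered was 70% in liver, 22%, 8% and 0% in cervical, thoracic and lumbar cord, 15% in cervical and 57% in lumbar ganglia. The changed genes were drawn only from better expressed genes, so these shares do not hold for genes as low as TMPRSS6 and HAMP in cord. Smaller changes were not simulated. No sequences are shown, since no genome of this build was used here.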

Additional observations from a re-analysis of the deposited data

Results flagged for a closer look

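In 20 of the 108 groups of 4 libraries (9 genes, 6 tissues, 2 treatments), 1 library lay so far from the other 3 that its gap to the nearest, as a share of the group's range, exceeded Dixon's critical value. For independent groups of normally distributed values, chance flags about 1 in 20, which would be 5.4 here. The 9 genes were read in the same libraries and CPM were not log-transformed, so the 20 are not weighed against that number. All values are TMM-scaled CPM.

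Of these, 4 were in cervical ganglia treated replicate 4, the library with 9.76% of counts in short nuclear genes: HAMP at 1.66, TFR2 at 23.9, FTH1 at 2003 and FTL at 1814 CPM. The same animal stood apart with FTL at 1036 CPM in cervical cord, and with HAMP at 3.64 and TFRC at 57.6 CPM in lumbar cord.

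The lumbar cord libraries with almost no MOG stood apart for TF in control replicate 1 (115 CPM), for SLC40A1 in control replicate 1 (79.6 CPM) and treated replicate 1 (79.0 CPM), and for BMP6 in treated replicate 1 (39.7 CPM). Thoracic cord libraries with mitochondrial shares over 30% stood apart for HAMP, control replicate 4 at 5.40 CPM and treated replicate 1 at 2.95 CPM.

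The others were HAMP in liver treated replicate 2 (284 CPM), HAMP in cervical ganglia control replicate 4 (0.176 CPM, 8 counts), TFRC in thoracic cord control replicate 3 (132 CPM), SLC40A1 in cervical ganglia control replicate 4 (140 CPM) and lumbar ganglia control replicate 3 (65.6 CPM), FTH1 in lumbar ganglia control replicate 2 (671 CPM) and FTL in liver control replicate 4 (957 CPM).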

How the results depend on the processing

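Depth left TMPRSS6 in 2 cord regions and HAMP in both ganglia untested. DESeq2 gave counts of genes passed of 190 in liver, 108, 28 and 6 in cervical, thoracic and lumbar cord, 225 and 1738 in cervical and lumbar ganglia, 57 in summed cord and 1767 in the ganglia together. Cervical cord gave 2 with no filter on low counts. Lumbar ganglia gave 1843 with total counts and 18 to 670 with 1 animal left out, and cervical ganglia 0 to 2. The ganglia together, with 137 genes passed, gave 13 when summed per animal, 0 with total counts and 3 to 963 with 1 animal left out. The cause of these differences was not tested. Replicate numbers were not taken as pairs, since in no comparison did all 4 same-numbered pairs correlate over 0.1. Same-numbered pairs still had the higher mean correlation in every comparison checked except cervical ganglia (-0.116 against 0.0229 for other pairs). The means were 0.152 against -0.0502 in liver, 0.568 against -0.108 in lumbar cord and 0.429 against -0.134 in summed cord. Same-numbered pairs also shared sex, which these correlations did not adjust for, and in lumbar cord replicate 1 of both groups had almost no MOG. The part of these in the correlations was not tested. With the replicate block lumbar ganglia gave 206 genes and the ganglia together 46, FTH1 in lumbar ganglia still passed (-0.94), ISCU and HMOX2 did not (adjusted p = 0.0590 and 0.0924), and TF and FTL in lumbar cord turned to -0.28 and -0.030; it changed no other call on a named gene. Other values that turned sign, none of them past the threshold, were in thoracic cord HAMP with no sex term (-0.29) and BMP6 without the 3 libraries of high mitochondrial share (0.57), in lumbar cord TF with limma voom (-0.30), FTL with no sex term (-0.023) and FTH1 without the 2 libraries with almost no MOG (0.071), FTH1 in cervical ganglia with no sex term (0.12), TFR2 in the ganglia together when summed per animal (0.0021) and with total counts (0.015), and between liver and nervous tissue BMP6 with total counts (-0.97) and FTH1 without lumbar cord control 1 (0.0033). Leaving out each animal, signs of tested values turned within these ranges: in cervical cord TFR2 -0.27 to 0.66, FTH1 -0.50 to 0.044 and FTL -0.58 to 0.13; in thoracic cord HAMP -0.76 to 2.07, TFR2 -0.48 to 0.19, FTH1 -0.59 to 0.28, FTL -0.72 to 0.19, BMP6 -0.61 to 0.42 and HERC2 -0.80 to 0.040; in lumbar cord TFR2 -1.34 to 0.26, TF -1.32 to 0.89, SLC40A1 -0.22 to 0.32, FTH1 -0.36 to 0.37, FTL -0.48 to 0.51, BMP6 -0.77 to 0.087 and HERC2 -0.43 to 0.030; in cervical ganglia TFR2 -0.22 to 0.47, TF -0.42 to 0.037, SLC40A1 -0.10 to 0.28, FTH1 -0.76 to 0.25 and FTL -0.35 to 0.74; in summed cord TFR2 -0.37 to 0.25, FTH1 -0.35 to 0.16 and FTL -0.54 to 0.14; in the ganglia together FTL -0.30 to 0.27 and BMP6 -0.078 to 0.20; and between liver and nervous tissue FTH1 -0.32 to 0.044 and BMP6 -0.023 to 0.35.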
